A study of Homo sapiens with 24 samples.

Results

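The genes described here encode parts of the elastic fibre and the latent TGF-β binding proteins (LTBPs): *ELN*, *FBN1*, *FBN2*, *MFAP2*, *MFAP5*, *FBLN5*, *LTBP1*, *LTBP2*, *LTBP3* and *LTBP4*. They were taken by symbol, 10 of the 25702 gene identifiers counted, and all 10 were found. They were chosen by function and by 1 measured pattern, the *LTBP2* level, which was lower with a hairpin against *HMGA1* both in growing and in senescent cells. The values of that pattern are therefore given below as a description and carry no test.

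Elastic fibres give lung, skin and vessel walls their recoil. They consist of a core of cross-linked elastin, the product of *ELN*, laid down on microfibrils of the fibrillins *FBN1* and *FBN2*, with microfibril-associated glycoproteins (*MFAP2*, *MFAP5*) and fibulin-5 (*FBLN5*), which helps to bring elastin onto the microfibril. LTBPs are fibrillin-like proteins of the same microfibrils. *LTBP1*, *LTBP3* and *LTBP4* hold latent TGF-β in the matrix, while *LTBP2* does not bind latent TGF-β and is known for its part in microfibrils and elastic fibre assembly.

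RNA-seq was performed on IMR90 cells, a line of human lung fibroblasts, at passages 23 to 28. All 24 samples carried ER:HRAS(G12V), an oncogenic RAS fused to an oestrogen receptor domain that is switched on by 4-hydroxytamoxifen (4OHT). Growing cells carried the MSCV vector and shHMGA1 cells carried MSCV miR30 shHMGA1, a hairpin against the chromatin protein HMGA1, and neither received 4OHT. RIS cells (RAS-induced senescence) carried the vector and RIS+shHMGA1 cells the hairpin, both with 6 days of 4OHT. Each group held 6 biological replicates by the labels. Every group thus carried the inactive oncogene or its active form in 1 cell line, and no group was given 4OHT without the fusion protein, so that 4OHT and RAS activity cannot be told apart.

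Total counts lay between 8698070 and 23103424 per library. *HMGA1* stood at 639 to 861 CPM (counts scaled to a common library size) in growing and 641 to 786 in RIS cells, against 54.4 to 143 CPM in shHMGA1 and 60.0 to 262 CPM in RIS+shHMGA1 cells, so that hairpin and vector libraries did not overlap. Among the hairpin libraries, those numbered 5 and 6 held less *HMGA1* (54.4 to 58.1 CPM without and 60.0 to 75.1 CPM with 4OHT) than those numbered 1 to 4 (98.7 to 143 and 197 to 262 CPM). The libraries labelled growing replicate 4 and RIS replicate 2 stood apart from their groups. On the first principal component, growing 4 lay at 77.3 and the other growing libraries between −84.3 and −57.2, and RIS 2 lay at −77.1 and the other RIS libraries between 16.8 and 62.1. The summed level of 9 inflammatory secretory genes was 172243 CPM in growing 4 and 6112 to 13550 CPM in the other growing libraries, and 8397 CPM in RIS 2 and 62030 to 141086 CPM in the other RIS libraries. The summed level of 10 cell cycle genes was 123 CPM in growing 4 and 634 to 957 CPM in the other growing libraries, and 760 CPM in RIS 2 and 92.2 to 128 CPM in the other RIS libraries. On all 3 measures each of these libraries thus lay on the side of the other 4OHT state. Whether labels or treatments were exchanged was not tested. Both were kept in their labelled groups, and comparisons of growing or RIS cells are given with and without them. Neither library is part of RIS+shHMGA1 against shHMGA1, which is therefore described first. The fit estimated the spread of each gene over all groups, so both libraries still enter the errors and p-values of that contrast. Of the fibroblast markers, all 10 passed the filter on low counts. The defining epithelial marker *EPCAM* reached at most 1.26 CPM, the endothelial markers *PECAM1* and *CDH5* at most 1.27 and 0.423 CPM, and the leukocyte marker *PTPRC* at most 0.688 CPM. Not every listed marker was this low, and the highest gene of the leukocyte list reached 105 CPM in RIS cells. *TEK* of the endothelial and *CD68* of the leukocyte list are given below.

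The genes lie on separate chromosomes except *LTBP2* and *FBLN5*. On hg19 (GRCh37, GENCODE v44 lifted to it), *ELN* is at chr7:73442119-73484237 on the plus strand with 33 exons in its canonical transcript, *FBN1* at chr15:48700510-48937918 on the minus strand with 66 exons, and *FBN2* at chr5:127593601-127994878 on the minus strand with 65 exons. *LTBP2* is at chr14:74964886-75079081 on the minus strand with 36 exons and *LTBP4* at chr19:41098789-41135723 on the plus strand with 31 exons. *ELN* shares 147 exonic bases with ELN-AS1 on the other strand. The library kit keeps the strand, but the strand setting of the counting is not given in the sources used here, so reads over those bases could belong to either gene.

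Since many of these genes moved together, their promoters were searched for short motifs. RefSeq (GRCh38.p14) gave 14 windows, each from 250 bases before to 50 after a transcription start, for 8 of the genes. *ELN* and *MFAP5* were not among them. A stretch is shown for each kind of match, and a GC box from each of 2 genes, with the matched letters in capitals, read 5′ to 3′ on the gene's own strand.
FBLN5, TATA box, chr14:91947048-91947077, minus strand: gatattgttaatTATAAAaagctgcgcctc
MFAP2, AP-1 site, chr1:16981625-16981654, minus strand: cccccagtcacTGAGTCAgggctttgtcag
LTBP1, A/T run, chr2:32946911-32946940, plus strand: gggagagaaacTTTTAAAAgacttcgccgc
LTBP2, GC box, chr14:74612403-74612432, minus strand: gtcagccccgcgCCGCCCcctgctccgcac
FBN2, GC box, chr5:128538365-128538394, minus strand: cttactctgtccCCGCCCactctgcgccgg

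The TATA box (TATAAA, both strands) was found in 1 of the 14 windows, that of *FBLN5*, where it begins 33 bases before the start, and in 11.53% of 35116 promoters of all genes. An AP-1 site (TGANTCA), the letters read by FOS and JUN proteins, was found in 1 window, which holds 2 matches upstream of *MFAP2*, and in 7.71% of all promoters. The GC box of Sp1 (GGGCGG, here in its reverse form) was found in 9 windows from 6 genes, *LTBP2* and *FBN2* among them, and in 44.95% of all promoters. HMGA proteins bind the minor groove of A/T-rich DNA, and a run of 8 or more A or T was present in 7 windows from 5 genes and in 36.85% of all promoters. The 2 windows of *LTBP3* overlap and count the same run. In the *LTBP1* window shown the run begins 31 bases before the start. The palindrome of SMAD proteins (GTCTAGAC) was in 0 of the 14 windows and in 0.2% of all. These matches describe the letters and were not tested for binding.

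In level per transcript length (CPM per kb of the canonical transcript), *LTBP1* led in all 4 groups, with a mean of 73.1 CPM per kb in growing cells and 64.5 with the hairpin alone, and of 53.8 in RIS and 30.2 in RIS+shHMGA1 cells. *FBN1* followed it in each group, at 59.9, 39.3, 34.1 and 17.2 CPM per kb. In growing cells the order went on with *FBLN5* at 43.5, *LTBP2* at 27.5, *FBN2* at 9.74, *LTBP3* at 9.40, *LTBP4* at 8.81, *ELN* at 6.14 and *MFAP2* at 5.56 CPM per kb, and apart from the step from *LTBP2* to *FBN2* the ranges of neighbours overlapped. *LTBP2* came after *FBLN5* in growing and shHMGA1 cells and before it in RIS and RIS+shHMGA1 cells, where the ranges of both overlapped. *MFAP5*, a microfibril-associated glycoprotein, was close to undetected. It had 12 reads over the 24 libraries, with 7 in growing and 3 in shHMGA1 cells, 2 in RIS cells and 0 in RIS+shHMGA1 cells, the last of which allows up to 0.0531 CPM over that group. It did not pass the filter on low counts and entered no test, so that 9 of the 10 genes were tested.

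**Figure D1:**
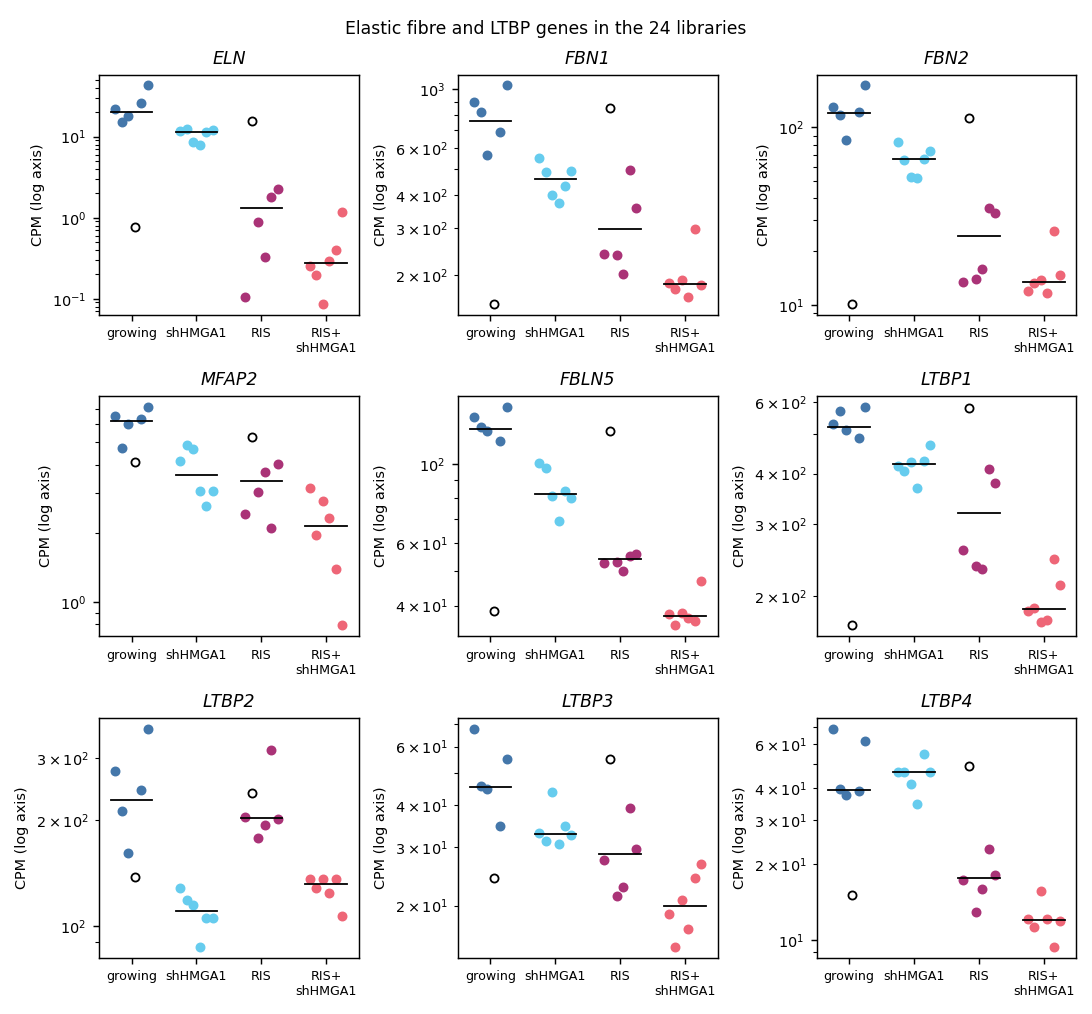
CPM (log axis) of the 9 tested genes in each library of the 4 groups, where points are libraries in order of replicate number, black lines are group medians and open points are growing 4 and RIS 2. *ELN* reached at most 1.19 CPM in RIS+shHMGA1 and at least 7.83 CPM in shHMGA1 cells, while *LTBP2* was at 107 to 136 and 87.5 to 128 CPM.

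To ask how the genes differ once RAS is active in cells with the hairpin, RIS+shHMGA1 was compared with shHMGA1. *ELN* fell furthest, 25.6-fold, *FBN2* fell 4.26-fold and *LTBP4* 3.72-fold, and the remaining fibre genes and LTBPs fell by less, except *LTBP2*, which did not pass the test. By edgeR's quasi-likelihood test at a false discovery rate (FDR, the adjusted p) below 0.01 and a log2 fold change of more than 0.58 in size, 8 of the 9 tested genes were lower and 0 higher. Over all 13356 genes tested 19.5% were lower and 19.6% higher by the same thresholds. The median log2 fold change was −1.15 over the 9 genes and −0.02 over all genes.

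*ELN*, the elastin core, was at 7.83, 11.5 and 12.5 CPM (lowest, median and highest) in shHMGA1 cells and at 0.0869, 0.273 and 1.19 CPM in RIS+shHMGA1 cells. The groups did not overlap, and the value of 1.19 CPM belonged to replicate 6. The log2 fold change was −4.68 ± 0.93 (SE, n = 6 per group) with an adjusted p of 0.000444 by edgeR. In counts this was 23 reads against 825, or 3.78% of the shHMGA1 level with a 95% interval of 2.38 to 5.70% that covers counting error alone.

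Of the fibrillins, *FBN1* is the main microfibril protein of adult tissue and *FBN2* is made mostly during development. *FBN1* was at 372, 461 and 551 CPM in shHMGA1 and at 164, 185 and 297 CPM in RIS+shHMGA1 cells, a log2 fold change of −1.19 ± 0.34 (adjusted p = 0.00537, edgeR). *FBN2* was at 51.6, 66.2 and 82.4 CPM against 11.7, 13.5 and 26.2 CPM, a log2 fold change of −2.09 ± 0.50 (adjusted p = 0.00165, edgeR). For both fibrillins the groups did not overlap, and replicate 5 was the highest of the RIS+shHMGA1 libraries.

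*FBLN5*, which binds elastin, was at 69.2, 82.3 and 101 CPM in shHMGA1 and at 35.2, 37.5 and 46.7 CPM in RIS+shHMGA1 cells, with no overlap and a log2 fold change of −1.15 ± 0.24 (adjusted p = 0.000678, edgeR). *MFAP2*, which sits on the fibrillin microfibril, was at 2.64, 3.61 and 4.88 CPM against 0.794, 2.15 and 3.17 CPM. Its groups overlapped, and its log2 fold change of −0.85 ± 0.27 passed narrowly (adjusted p = 0.00953, edgeR) and did not pass without any 1 of the 6 replicate numbers. With growing 4 and RIS 2 left out, its adjusted p was 0.00355 (edgeR).

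The LTBPs that hold latent TGF-β were all lower. *LTBP4* was at 34.8, 46.3 and 54.7 CPM in shHMGA1 and at 9.43, 12.02 and 15.6 CPM in RIS+shHMGA1 cells, with a log2 fold change of −1.90 ± 0.30 (adjusted p = 0.000199, edgeR). *LTBP1* was at 369, 422 and 469 CPM against 172, 186 and 246 CPM, a log2 fold change of −1.09 ± 0.24 (adjusted p = 0.000786, edgeR). *LTBP3* was at 30.6, 32.8 and 43.7 CPM against 15.0, 19.9 and 26.6 CPM, a log2 fold change of −0.75 ± 0.23 (adjusted p = 0.00776, edgeR). None of these 3 overlapped between the groups, though *LTBP3* did not pass the test without any 1 of the replicate numbers, nor *FBN1* without 1, 3 or 6. With growing 4 and RIS 2 left out, the adjusted p was 0.000381 for *LTBP3* and 9.05e-06 for *FBN1* (edgeR). Between the groups 7 of the 9 tested genes lay wholly lower, as did 22.5% of all tested genes, and 20.9% of all lay wholly higher.

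*LTBP2*, the LTBP that does not bind latent TGF-β, was at 128, 119, 115, 87.5, 105 and 106 CPM in shHMGA1 replicates 1 to 6 and at 136, 129, 136, 125, 136 and 107 CPM in RIS+shHMGA1 replicates 1 to 6. The groups overlapped, and the hairpin libraries with 4OHT covered a range of 107 to 136 CPM. The log2 fold change was 0.22 ± 0.18 with a 95% interval of −0.14 to 0.57 (adjusted p = 0.291, edgeR), so a rise of up to 0.57 or a fall of up to 0.14 on the log2 scale is within the error.

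To ask the same in vector cells, RIS was compared with growing. With all 24 libraries 0 of the 9 genes and 0% of all genes passed both thresholds in edgeR, although 7 of the 9 had an unadjusted p under 0.05, as had 4407 of the 13356 genes. By DESeq2, 0 of the 9 and 826 of all genes passed, and by voom with sample quality weights 8 of the 9 and 6317 of all genes. Without growing 4 and RIS 2, 8 of the 9 genes were lower, and 20.5% of the 13416 genes then tested were lower. The gene that did not pass was *LTBP2*. The median log2 fold change was −0.81 over the 9 genes with all libraries and −1.28 without the pair.

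*ELN* was at 21.9, 15.3, 17.9, 0.772, 26.3 and 42.9 CPM in growing replicates 1 to 6 and at 0.105, 15.5, 0.882, 0.327, 1.78 and 2.28 CPM in RIS replicates 1 to 6. Growing 4 lay within the range of the other RIS libraries and RIS 2 within that of the other growing ones. The log2 fold change was −2.57 ± 0.71 (adjusted p = 0.0241, edgeR) with them and −4.46 ± 0.39 (adjusted p = 8.81e-10, edgeR) without them. The other 5 RIS libraries held 61 reads against 1780 in the other 5 growing libraries, which is 4.72% of the growing level (95% counting interval 3.59 to 6.09%).

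*FBN2* was at 131, 117, 85.3, 10.2, 123 and 172 CPM in growing and at 13.4, 113, 14.0, 16.0, 35.1 and 32.9 CPM in RIS replicates 1 to 6, which gave −1.51 ± 0.49 (adjusted p = 0.0416, edgeR) with and −2.49 ± 0.26 (adjusted p = 1.84e-08, edgeR) without the pair on the log2 scale. *FBLN5* was at 136, 127, 124, 38.6, 116 and 144 CPM in growing and at 52.6, 124, 52.9, 49.8, 55.3 and 55.7 CPM in RIS cells, and its log2 fold change was −0.81 ± 0.24 (adjusted p = 0.0303, edgeR) with and −1.28 ± 0.10 (adjusted p = 1.87e-10, edgeR) without the pair. For both genes all other RIS libraries lay below all other growing libraries.

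For *LTBP4* the log2 fold change was −0.95 ± 0.29 with and −1.51 ± 0.18 without the pair, for *FBN1* −0.81 ± 0.34 and −1.39 ± 0.21, for *MFAP2* −0.77 ± 0.25 and −1.01 ± 0.24, for *LTBP3* −0.48 ± 0.23 and −0.83 ± 0.18, and for *LTBP1* −0.44 ± 0.23 and −0.82 ± 0.14. Without the pair, 7 of the 9 tested genes lay wholly lower in RIS than in growing libraries, as did 19.3% of all tested genes, and those that overlapped were *LTBP2* and *LTBP3*.

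By replicate number and without the pair, the RIS libraries numbered 5 and 6 held more *ELN* (mean 2.03 CPM) than the 3 left of those numbered 1 to 4 (0.438 CPM). The same held for *FBN2*, at 34.0 against 14.5 CPM, and for *LTBP1*, at 395 against 243 CPM. In RIS+shHMGA1 cells *ELN* was at 0.796 against 0.207 CPM, which rests on 4 and 12 reads against 1 to 2 reads per library. *FBN2* was at 20.5 against 12.7 CPM, and *FBN1*, *LTBP1*, *LTBP3* and *FBLN5* were also higher on average in numbers 5 and 6. Other genes went the other way there. *MFAP2* was lower without overlap (0.794 to 1.404 against 1.967 to 3.172 CPM). *LTBP4* (10.7 against 12.8 CPM) and *LTBP2* (121 against 131 CPM) had lower means. The *HMGA1* levels of these libraries differed by number as given above. The labels name no batch, the numbers were set apart after the values were seen, and what divides them was not tested.

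*LTBP2* was at 276, 213, 162, 138, 243 and 365 CPM in growing and at 205, 239, 178, 194, 317 and 202 CPM in RIS replicates 1 to 6. The groups overlapped over most of their range. The log2 fold change was −0.07 ± 0.18 (95% interval −0.42 to 0.29, adjusted p = 0.808, edgeR) with all libraries and −0.20 ± 0.17 (95% interval −0.53 to 0.13, adjusted p = 0.307, edgeR) without the pair. A fall larger than 0.53 on the log2 scale is thus outside both intervals. Whether its response to 4OHT differs from that of the other LTBPs was not tested.

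**Figure D2:**
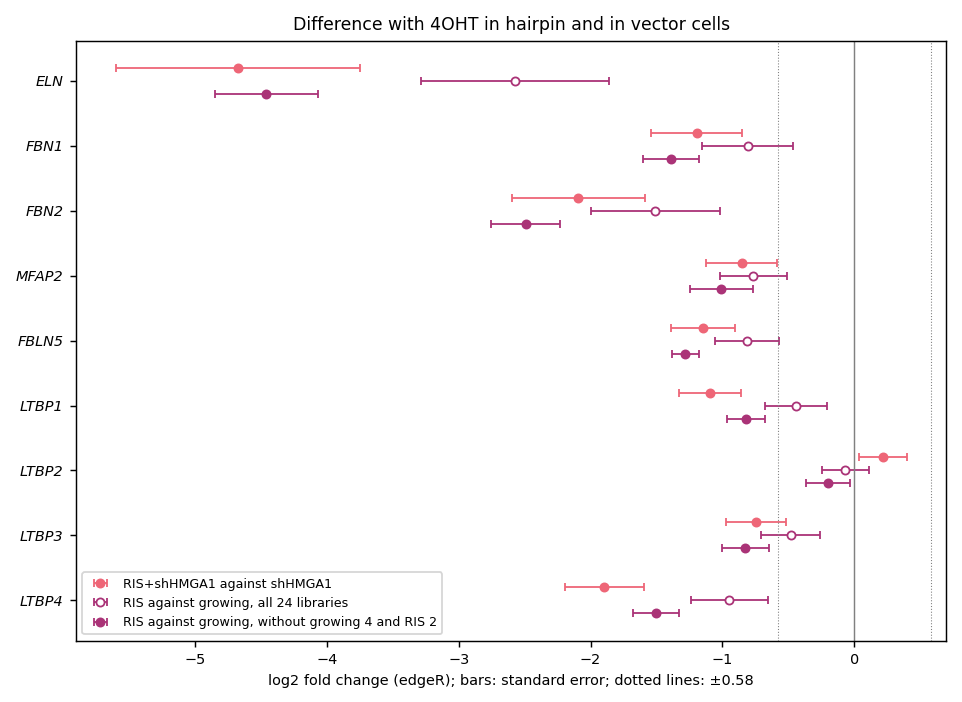
Log2 fold change with 4OHT (x axis) for the 9 tested genes (y axis), with bars for the standard error, in hairpin cells (filled, light) and in vector cells with all 24 libraries (open) and without growing 4 and RIS 2 (filled, dark). *ELN* lay at −4.68, −2.57 and −4.46, and *LTBP2* at 0.22, −0.07 and −0.20.

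The cells' own fibroblast markers moved with these genes. Of the 10 fibroblast markers, 9 were lower in RIS+shHMGA1 than in shHMGA1 cells and 0 higher, and their summed level was 5410 to 6996 CPM against 16315 to 23605 CPM. The cell cycle list also moved, with 10 of 10 genes lower and a summed level of 119 to 160 CPM against 724 to 1161 CPM. Of the 5 endothelial markers 1 was tested, *TEK*, which fell from 69.9 to 123 CPM to 13.6 to 21.8 CPM, while *PECAM1* and *CDH5* were near 0 as given above. Of the 3 smooth muscle markers 2 were tested and 1 fell, *MYH11*, at no more than 3.13 CPM in any library, and the defining marker *DES* reached at most 0.458 CPM. The other tested gene, *SMTN*, had a mean log2 CPM of 7.66 and did not pass, at −0.06 ± 0.11 (adjusted p = 0.671, edgeR). Of the 6 epithelial markers 0 were tested, and of the 5 leukocyte markers 1 was tested and did not pass. In bulk RNA, fewer cells of a kind and less RNA per cell cannot be told apart, and the part of the marker changes in the results was not tested.

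The hairpin contrasts hold the pattern by which the genes were chosen, and their values are given without a test. *LTBP2* was lower in every shHMGA1 library (87.5 to 128 CPM) than in any growing library (138 to 365 CPM), growing 4 being the lowest of the latter. It was also lower in every RIS+shHMGA1 library (107 to 136 CPM) than in any RIS library (178 to 317 CPM). The log2 fold change was −1.08 ± 0.18 (47.3% of the growing level) without 4OHT and −0.80 ± 0.18 (57.6% of the RIS level) with 4OHT. Without growing 4 and RIS 2 it was −1.19 ± 0.16 and −0.77 ± 0.16. Over the 6 numbers left out in turn, the log2 fold change of *LTBP2* ranged from −1.18 to −0.90 in the first contrast and from −0.87 to −0.69 in the second.

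Over the 9 genes the median log2 fold change with the hairpin was −0.61 without and −0.83 with 4OHT, and −0.73 and −0.57 without growing 4 and RIS 2. *ELN* was at −0.97 ± 0.66 on the log2 scale without 4OHT and at −3.07 ± 0.96 with 4OHT in all libraries, and at −1.21 ± 0.28 and −1.43 ± 0.62 without growing 4 and RIS 2. With the pair left out, its shHMGA1 libraries (7.83 to 12.5 CPM) lay below the growing libraries (15.3 to 42.9 CPM), while its RIS+shHMGA1 libraries (0.0869 to 1.19 CPM) overlapped the RIS libraries (0.105 to 2.28 CPM). *FBN1* was at −0.61 ± 0.34 and −0.99 ± 0.34 with all libraries, and at −0.81 ± 0.20 and −0.62 ± 0.20 without the pair. *FBN2* was at −0.70 ± 0.48 and −1.29 ± 0.50 with all, and at −0.94 ± 0.23 and −0.54 ± 0.25 without.

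*LTBP4*, which holds latent TGF-β, had the smallest difference without 4OHT, at 34.8 to 54.7 CPM in shHMGA1 and 37.8 to 69.0 CPM in the growing libraries other than 4. Its log2 fold change there was 0.04 ± 0.29 with all libraries and −0.13 ± 0.16 without the pair, and with 4OHT it was −0.91 ± 0.30 and −0.52 ± 0.18. *LTBP1* was at −0.18 ± 0.23 without 4OHT and −0.83 ± 0.24 with 4OHT in all libraries, and at −0.35 ± 0.14 and −0.63 ± 0.14 without the pair. *FBLN5* was at −0.42 ± 0.24 and −0.76 ± 0.24 with all libraries, and at −0.60 ± 0.10 and −0.47 ± 0.10 without the pair. For *MFAP2* and *LTBP3* the 4 values lay between −0.73 and −0.57 and between −0.67 and −0.41.

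**Figure D3:**
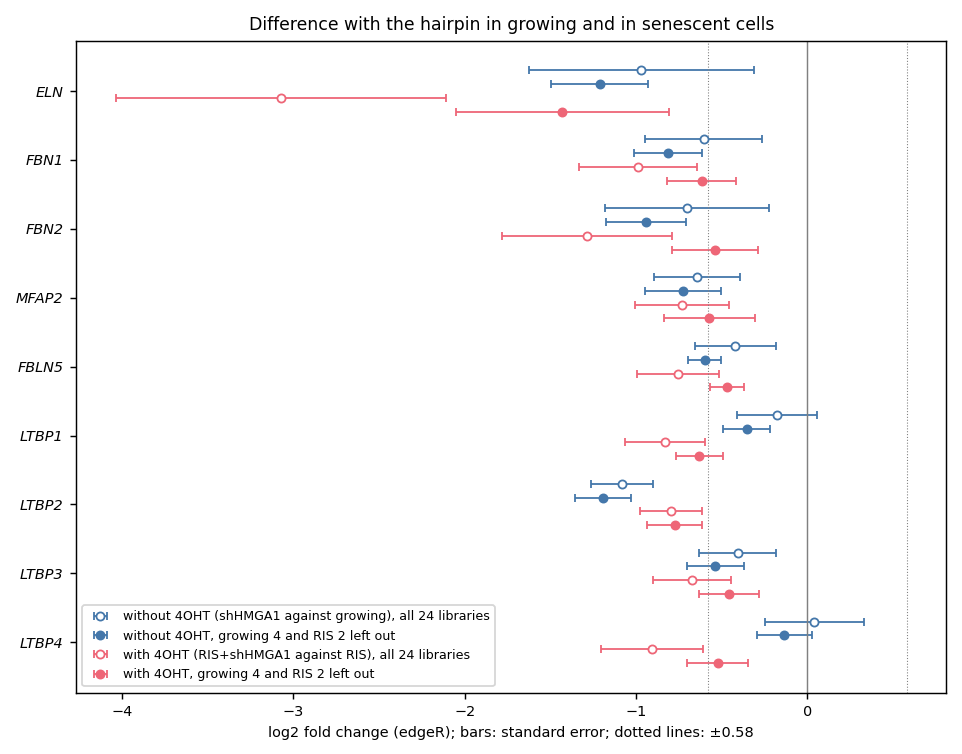
Log2 fold change with the hairpin (x axis) for the 9 tested genes (y axis), with bars for the standard error, without 4OHT (dark) and with 4OHT (light), in all 24 libraries (open) and without growing 4 and RIS 2 (filled). *LTBP2* lay between −1.19 and −0.77 in all 4 settings, and *ELN* moved from −3.07 to −1.43 with 4OHT when the pair was left out.

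The difference between the hairpin effects with and without 4OHT rests on the same contrasts and is likewise a description. For *LTBP2* it was 0.29 ± 0.26 on the log2 scale with all libraries and 0.42 ± 0.23 without the pair, with a 95% interval of −0.03 to 0.87. For *ELN* it was −2.10 ± 1.18 with and −0.22 ± 0.65 without the pair, and for *LTBP4* −0.95 ± 0.41 and −0.39 ± 0.24. RIS+shHMGA1 against growing joins the hairpin and RAS contrasts. There, 9 of 9 genes were lower, where 23.9% of all genes were lower. *LTBP2*, at −0.86, counts through the hairpin difference by which it was chosen, so its part is a description. The other genes lay between −1.15 and −5.65, the last for *ELN*. Without the pair 9 of 9 were lower too, from −0.98 for *LTBP2* to −5.89 for *ELN*, and 28.5% of all genes.

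Within the LTBP family, *LTBP2* made up 13.9 ± 1.4% (SD, n = 6) of the summed level per transcript length in shHMGA1 and 29.3 ± 3.4% in RIS+shHMGA1 cells. In growing cells its share was 23.9 ± 5.6% and in RIS cells 29.9 ± 5.5%, or 22.1 ± 4.2% and 31.8 ± 3.3% (SD, n = 5) without growing 4 and RIS 2. *LTBP4* took 9.67 ± 1.04% in shHMGA1 and 4.75 ± 1.03% in RIS+shHMGA1 cells, and *LTBP1* was the largest part in every group, at 57.9 to 68.9% on average with all libraries. These shares use *LTBP2* and are given with no test.

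**Figure D4:**
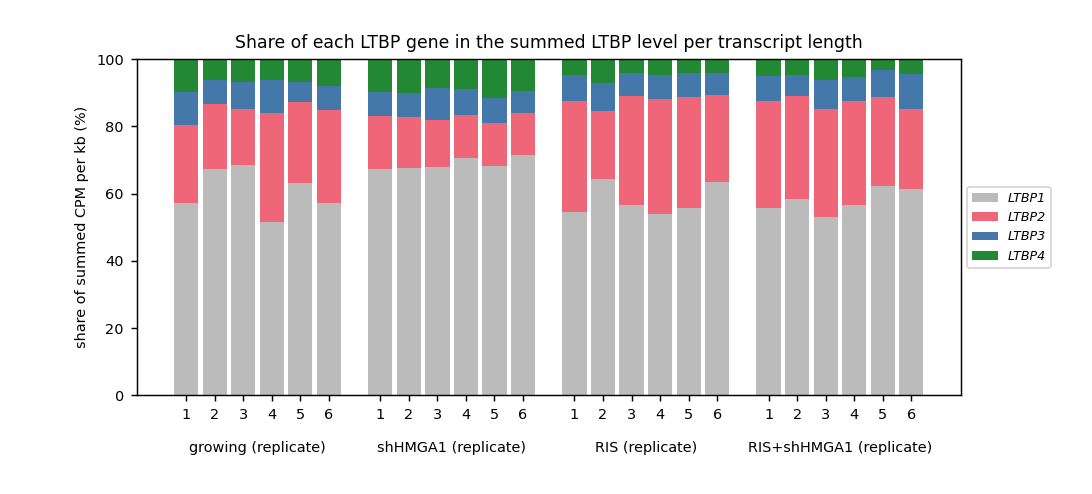
Share of *LTBP1* to *LTBP4* in their summed CPM per kb (y axis, %) in each of the 24 libraries (x axis, by group and replicate number). The *LTBP2* share was 12.4 to 15.9% in the shHMGA1 libraries and 23.7 to 32.1% in the RIS+shHMGA1 libraries.

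Genes that act with the elastic fibre were taken from lists by function. Of the 5 lysyl oxidase genes that cross-link elastin and collagen, 5 were lower in RIS+shHMGA1 than in shHMGA1 cells, with a median log2 fold change of −1.81. *LOXL1* was at −1.95 ± 0.38, *LOXL2* at −1.90 ± 0.35, *LOXL4* at −1.81 ± 0.36 and *LOX* at −1.46 ± 0.28. *LOX* was at 395, 449 and 579 CPM (lowest, median and highest) in shHMGA1 and at 162, 173 and 189 CPM in RIS+shHMGA1 cells, so that the groups did not overlap. Without growing 4 and RIS 2, 5 of 5 were also lower in RIS than in growing cells, with a median of −1.63, and with them 0 passed.

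Of 8 tested fibulins and microfibril-associated genes out of 9, 6 were lower and 1 higher, and the median log2 fold change was −2.14. *EFEMP1* (fibulin-3) was at −3.99 ± 0.59, with 32.6 to 39.8 CPM in shHMGA1 and 1.75 to 2.68 CPM in RIS+shHMGA1 cells. *FBLN1* was at −3.12 ± 0.53, *FBLN2* at −2.95 ± 0.66 and *MFAP4*, which binds elastin and microfibrils, at −2.71 ± 0.51. The 1 higher gene, named after its values were seen, was *EMILIN2*, at 1.36 ± 0.31 and no more than 6.15 CPM. In RIS against growing 0 passed with all libraries (median −1.22), and 6 were lower and 1 higher without the pair (median −1.95). Of 4 tested ADAMTS and ADAMTS-like genes out of 6, whose products bind fibrillin microfibrils, 1 was lower, *ADAMTSL4*, at −1.23 ± 0.30, and the median was −0.94. With the pair left out, which also changes the spread shared by all groups, 4 of 4 were lower in the same contrast. Of all 13416 genes then tested, 2936 were lower. In RIS against growing 0 passed with and 3 were lower without the pair.

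Of 6 tested genes out of 8 for latent TGF-β cargo and its activators, 4 were lower and 1 higher, with a median of −1.01. *TGFB2*, a cargo that LTBPs hold, was at −2.42 ± 0.48, with 34.6 to 110 CPM in shHMGA1 and 8.51 to 20.1 CPM in RIS+shHMGA1 cells. *THBS1*, thrombospondin-1, was at −1.66 ± 0.37, *ITGAV*, the αv integrin chain, at −1.13 ± 0.21 and its partner chain *ITGB8* at 2.38 ± 0.63, with 0.602 to 1.65 CPM in RIS+shHMGA1 and 0.0727 to 0.360 CPM in shHMGA1 cells. *FURIN*, named after its values were seen, encodes the protease that cleaves the TGF-β precursor and also fell, at −0.89 ± 0.21. *TGFB1*, a cargo also named after its values were seen, was at −0.16 ± 0.13 and did not pass (adjusted p = 0.284, edgeR). Without growing 4 and RIS 2, 4 of 7 tested were lower and 1 higher in RIS against growing, and with them 0 passed.

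Of these 5 lists, the elastin-degrading enzymes had more genes higher than lower. Out of 8, 6 were tested, 4 were higher and 1 lower, and the median was 2.04. *CTSS*, cathepsin S, was at 76.3, 115 and 168 CPM in shHMGA1 and at 748, 1192 and 1335 CPM in RIS+shHMGA1 cells, a log2 fold change of 3.23 ± 0.76 (adjusted p = 0.0014, edgeR). *MMP12*, macrophage elastase, was at 6.64, 13.9 and 17.8 CPM against 76.7, 109 and 120 CPM, a log2 fold change of 2.99 ± 0.60, and *CTSL*, cathepsin L, was at 1.09 ± 0.18. *MMP9*, a gelatinase, had 0 reads in the shHMGA1 libraries and was at 1.20 to 4.52 CPM in RIS+shHMGA1 cells, at least 74.7-fold higher when set against 3 reads over the group. With *MMP9* at that bound the list's median stayed at 2.04. *MMP2*, named after its values were seen, was the 1 lower gene, at −0.59 ± 0.17. In RIS against growing 0 of 6 passed with all libraries (median 1.01), and 4 were higher and 0 lower without the pair (median 2.03).

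**Figure D5:**
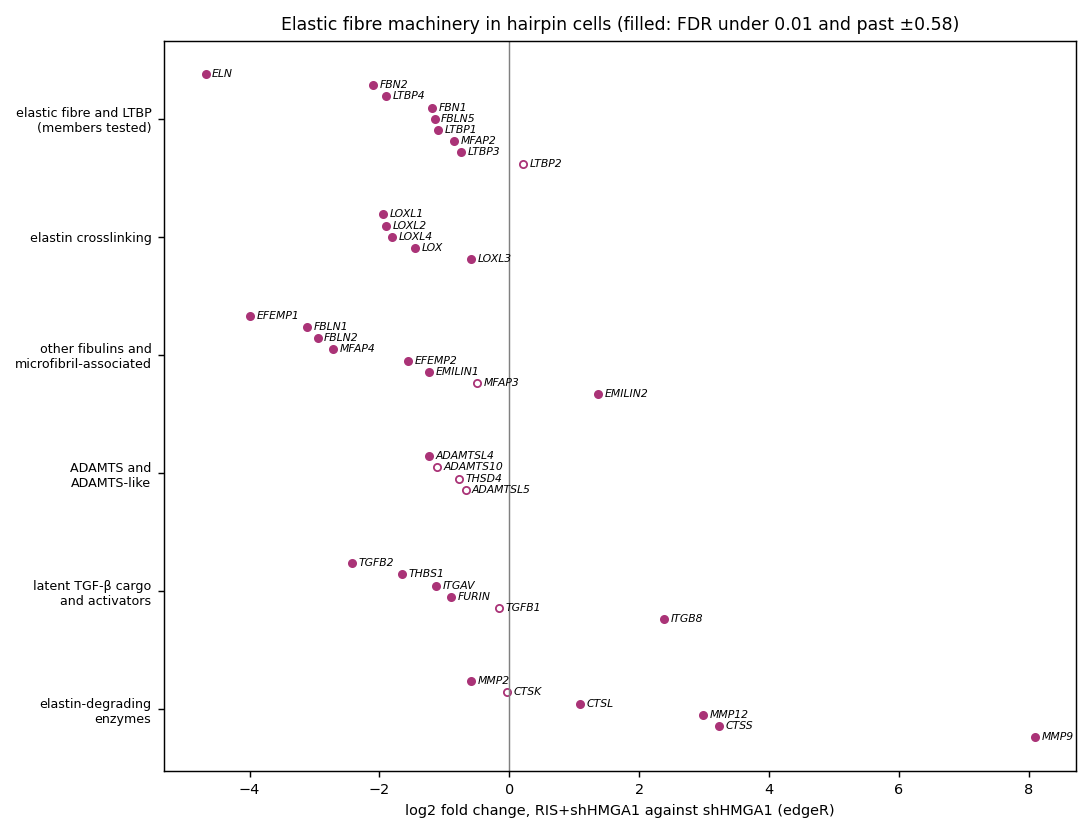
Log2 fold change in RIS+shHMGA1 against shHMGA1 (x axis) for the tested genes of each list (rows), filled where the FDR was under 0.01 and the log2 fold change past 0.58 in size. The fitted value of *MMP9* rests on 0 reads in shHMGA1 cells and is no bound. Most points of the first 5 rows lie left of 0, and 4 of the 6 elastin-degrading enzymes lie past the threshold to the right.

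With all libraries, 1 of 29 tested genes of these 5 lists passed in shHMGA1 against growing (0.27% of all genes), *CTSK*, cathepsin K, which degrades elastin and collagen. It was at 152 to 260 CPM in shHMGA1 and 63.5 to 120 CPM in growing cells, with no overlap and a log2 fold change of 1.13 ± 0.17 (adjusted p = 0.00133, edgeR). With all libraries it was also the 1 gene of the lists that passed in RIS+shHMGA1 against RIS (2.55% of all genes), at 0.82 ± 0.17 (adjusted p = 0.00551, edgeR), with 169 to 202 CPM against 73.9 to 162 CPM. With 4OHT in hairpin cells it was at −0.03 ± 0.17 (adjusted p = 0.875, edgeR). Without growing 4 and RIS 2 its values in the hairpin contrasts were 1.24 ± 0.15 and 0.74 ± 0.15. Without the pair, 4 of 30 tested genes of the lists passed in shHMGA1 against growing (2.59% of all genes), of which *CTSK* and *CTSS* were higher and *LOX* and *EMILIN1* lower. In RIS+shHMGA1 against RIS 8 passed (12.5% of all genes), of which *CTSK* and *CTSS* were higher and 6 lower, *LOXL2*, *FBLN1*, *EMILIN1*, *THSD4*, *THBS1* and *ITGB8*. The genes were named for these contrasts after their values were seen.

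Among 10928 other genes with a mean log2 CPM of at least 2, those with a pattern most like *LTBP2* over the 24 libraries were *LRIG1*, *ADAM12* and *FNIP2*, with a root mean square difference of 0.230, 0.239 and 0.245 in centred log2 CPM. For *ELN* the nearest genes were *LMO7* at 0.544 and *OXTR* at 0.634, with an identifier that has no symbol between them at 0.633. The libraries share RAS and hairpin state, so many genes follow the same few axes, and these distances describe likeness alone.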

How the data were processed

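The authors mapped reads to hg19 (STAR 2.5.0b and cutadapt 1.10.0 are named in the submitters' processing notes) and counted them per gene with Rsubread. The deposited values were raw counts, whole numbers for 25702 Entrez identifiers per library, of which 23696 were given a symbol from a RefSeq table. The annotation and strand setting of the counting are not given in the sources used here. Samples were grouped by their labels. No 2 libraries of a group agreed within sampling noise.

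Genes were filtered with filterByExpr by group (13356 left), scaled by TMM and fitted as group means over all 24 samples with glmQLFit and glmQLFTest in edgeR 4.0.16 (R 4.3.3, limma 3.58.1). Calls needed a Benjamini-Hochberg FDR under 0.01 over all genes tested and an absolute log2 fold change over 0.58, as in the study's methods. CPM used TMM library sizes. Intervals on log2 fold changes are 95% normal intervals from the SE, and counting intervals and floors (3 counts) cover counting error only.

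The genes and lists were chosen with earlier results of these data known. Named were all 10 genes, HMGA1, the genes most like *LTBP2* and *ELN*, and of each list up to 4 genes with the largest change past the thresholds in RIS+shHMGA1 against shHMGA1, with others marked. Alternatives were RLE size factors, no filter, 1 CPM in 6 samples, a replicate block, the samples of the contrast only, DESeq2 1.42.0, voom with sample quality weights, an FDR of 0.05, each replicate number left out, and growing 4 and RIS 2 left out with and without the block. The fit was also run on simulated counts, which held no libraries that depart from their group as growing 4 and RIS 2 do. The simulation therefore does not cover their effect on the errors.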

Additional observations from a re-analysis of the deposited data

Results flagged for a closer look

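In each group of 6 libraries the gap of the highest or lowest library to its neighbour was divided by the group's range. Dixon's 95% critical value for 6 samples is passed by chance in about 1 of 20 groups, and 11 of 36 groups passed it. RIS 2 was the highest RIS library for *FBLN5* (0.921), *ELN* (0.859), *FBN2* (0.781) and *LTBP4* (0.723), and growing 4 the lowest growing library for *LTBP1* (0.770) and *FBLN5* (0.732). The cell cycle and secretory gene levels of both are given above. Among RIS+shHMGA1 libraries, replicate 5 was highest for *FBN1* (0.802) and *FBN2* (0.787), and replicate 6 for *FBLN5* (0.754) and *ELN* (0.715). In shHMGA1 cells replicate 3 was highest for *LTBP3* (0.693).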

How the results depend on the processing

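In RIS+shHMGA1 against growing, which holds the *LTBP2* pattern by which the genes were chosen, 9 of the 9 tested genes were lower under each alternative run. Of all genes, 2164 of 13374 (without replicate number 1) to 3999 of 13356 (voom weights) were lower in that contrast. In RIS+shHMGA1 against shHMGA1 the count was 8, and 5 to 6 with a replicate number left out (5 without 1, 3 or 6), where *LTBP3* and *MFAP2* missed the threshold each time and 1870 to 2456 of all genes were lower. RLE size factors and no filter gave 7 (2469 of 13356 and 2645 of 20418 of all genes lower), since *MFAP2* missed it. In RIS against growing the count was 0. It was 4 without replicate number 2 or 4 (1459 of 13354 and 905 of 13383 of all genes lower) and 0 to 4 over the 6 numbers, 5 at an FDR of 0.05 (1064 of all genes lower), and 8 with voom weights (3184 of all genes lower) or with growing 4 and RIS 2 left out, with and without the replicate block. *LTBP2* there ranged from −0.18 to 0.13 on the log2 scale over the numbers left out, turning to 0.02 without number 1 and 0.13 without number 6, neither past the threshold.

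For the hairpin contrasts, by which the genes were chosen, the median over the 9 genes was −0.61 in shHMGA1 against growing and −0.69 to −0.48 over replicate numbers left out. In RIS+shHMGA1 against RIS the median was taken over the genes tested in every run, which leaves out *ELN*. It was −0.81 there (−0.83 over the 9 genes), −0.93 to −0.53 over the numbers left out, −0.43 with voom weights and −0.56 without the pair. The fall of *ELN* with the hairpin under 4OHT, −3.07, was −1.27 without number 2 and −0.55 with voom weights, which turned its hairpin by RAS difference to 0.20. The cause was not tested.

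Same-numbered samples of different groups had deviations with a mean correlation of 0.175 (−0.594 to 0.828), and differently numbered ones of −0.0496. Of 36 same-numbered pairs 24 were over 0.1, and a sample correlated best with its own number in 24 of 72 cases. Pairing was taken only if every pair passed 0.1, so the numbers were not used to pair the samples. The deviations were taken with growing 4 and RIS 2 in their groups, and the correlation between these libraries was −0.932. Same-numbered growing and shHMGA1 samples all had positive values, 0.0747 to 0.481. The rule set the fit used and does not show that the samples were unpaired. The replicate block moved RIS+shHMGA1 against RIS from 341 to 1637 of all genes, with a median of −0.78 over the 9, and changed no count of the 9 in the RAS contrasts. Over all genes, shHMGA1 against growing called 36, 348 without the pair, 97 by DESeq2 and 845 with voom weights, RIS against growing 0, 5331, 826 and 6317, and RIS+shHMGA1 against RIS 341, 1677, 1567 and 1856. *ELN* at 1 to 12 reads per RIS+shHMGA1 library is limited by depth.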
